A study of Mus musculus with 12 samples.

Results

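Among 19115 T cell barcodes with a paired receptor from mouse tumours, 56 carried the alpha segment pair of invariant natural killer T (iNKT) cells. These iNKT-type barcodes were those with a productive alpha (TRA) chain that joins the V segment TRAV11 or TRAV11D to the J segment TRAJ18, together with exactly 1 distinct beta (TRB) chain. They were compared with the 19059 remaining barcodes of the same libraries that had 1 beta chain and at least 1 alpha chain. The invariant chain lay on 64 barcodes in all, of which 56 had 1 beta chain, 6 had 2 beta chains and 2 had none. All 64 chains were named TRAV11 and 0 were named TRAV11D, a near-identical copy, and whether these reads tell the copies apart was not tested.

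iNKT cells are T cells that see lipids presented by CD1d instead of peptides on classical MHC molecules. In mice nearly all of them use a single alpha rearrangement, known as Vα14-Jα18, whose joining region is almost the same from cell to cell. Their beta chains are diverse in the CDR3 loop, the stretch where the V, D and J segments meet, but draw mostly on TRBV13-2 (Vβ8.2), TRBV29 (Vβ7) and TRBV1 (Vβ2). They answer early with cytokines and have been studied in tumours for that reason.

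The tumours were grown subcutaneously in C57BL/6J mice of 6 to 8 weeks from a p53-knockout derivative of the murine colon carcinoma line MC38, to which the labels assign a p53 substitution in conflicting notations. On day 10, at about 50 to 100 mm³, each tumour received 40 µg of LNP-Ctrl or LNP-P20-mAb in a single injection into the tumour, and the labels do not state when tumours were collected. Viable cells with CD45 on their surface were sorted, and about 10000 per sample entered droplet-based 5′ libraries with enrichment of receptor transcripts. There were 3 receptor libraries per treatment, and the gene expression samples of the series were not used here, so iNKT identity rests on the receptor alone. Nothing in the labels ties each library to its own animal. Permutation p-values therefore cover the variation among these libraries alone, which may be technical. No p-value here can be read as covering variation among animals.

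The libraries held 2016 to 3923 paired barcodes and 85835 to 145847 receptor UMIs (unique molecular identifiers, 1 per captured transcript). LNP-P20-mAb 1 and 2 had 125 receptors in common, with the same beta and leading alpha bases, that held 85.0% and 84.4% of their cells, so they may not be independent samples. No iNKT-type receptor was among those 125. Of 18924 distinct barcode sequences 189 occurred in 2 or more libraries, and 1 of the iNKT-type barcodes was among them, without the invariant chain in the other library.

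The invariant chain was the same up to the joining site in every one of the 64 chains. Its first 267 bases, from the start of framework 1 to the end of framework 3, had 1 sequence. The population is defined by this TRAV11 part together with TRAJ18. The TRAV11 part is given here because all these chains share it (the capitals mark CDR1 and then CDR2).
TRAV11 part of the invariant chain: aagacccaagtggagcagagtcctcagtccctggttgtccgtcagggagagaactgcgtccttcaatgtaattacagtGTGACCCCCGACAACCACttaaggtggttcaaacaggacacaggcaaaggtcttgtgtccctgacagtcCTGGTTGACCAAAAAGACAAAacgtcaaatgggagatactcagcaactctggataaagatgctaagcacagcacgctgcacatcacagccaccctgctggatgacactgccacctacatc

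The CDR3 that follows had the same 15 residues in 50 of the 56 iNKT-type barcodes (89.3%, 95% exact Clopper-Pearson interval 78.1% to 96.0%; such intervals cover counting error only). It was found in all 6 libraries, and among paired barcodes it occurred with no other pair of alpha segments. The bases behind it were of 4 kinds, which differ in the codon at bases 10 to 12, here in capitals, and each of which encodes the same glycine.
iNKT alpha CDR3, GGC form: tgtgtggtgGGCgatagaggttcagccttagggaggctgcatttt
iNKT alpha CDR3, GGG form: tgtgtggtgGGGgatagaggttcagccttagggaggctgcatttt
iNKT alpha CDR3, GGT form: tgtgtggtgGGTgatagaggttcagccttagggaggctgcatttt
iNKT alpha CDR3, GGA form: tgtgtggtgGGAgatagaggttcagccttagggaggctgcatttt

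The GGC form was carried by 19 barcodes, the GGG form by 18, the GGT form by 7 and the GGA form by 6. The GGG form was present in all 6 libraries, the GGC form in 5, and the GGT and GGA forms in 3 each, which were the LNP-Ctrl libraries. The LNP-P20-mAb libraries held 10 iNKT-type barcodes in all, too few to show that the rarer forms were absent there. No 2 of these 50 barcodes had the same beta chain.

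The remaining 6 barcodes had the same segments with another loop. A loop with valine in place of the glycine was found on 3 barcodes, of which LNP-Ctrl 2 held 2 and LNP-P20-mAb 3 held 1. A loop with alanine there was found once, in LNP-Ctrl 2. A loop of 16 residues was found once in LNP-Ctrl 3 and a loop of 17 residues once in LNP-P20-mAb 3. In the valine and alanine loops capitals mark the codon at bases 10 to 12. In the longer loops they run from base 10 to the last base before the stretch that matches the GGC form through to the 3′ end.
Valine loop, GTA form: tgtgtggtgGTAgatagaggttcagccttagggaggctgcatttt
Valine loop, GTC form: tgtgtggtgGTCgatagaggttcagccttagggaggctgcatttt
Alanine loop: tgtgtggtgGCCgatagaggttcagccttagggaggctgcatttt
Loop of 16 residues: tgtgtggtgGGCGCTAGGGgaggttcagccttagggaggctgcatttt
Loop of 17 residues: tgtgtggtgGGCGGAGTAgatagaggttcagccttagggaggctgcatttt

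Chains that share only 1 of the segments show how far each reaches into this loop. Of 35 distinct CDR3 sequences that join TRAV11 to another J segment, 97.1% matched the GGC form through base 10, 62.9% through base 12 and 11.4% through base 14. Of 211 distinct sequences that join TRAJ18 to another V segment, 24.6% matched it from base 13 to the end, 1.42% from base 12 and 0% from base 11. Among iNKT-type loops of 15 residues only bases 11 and 12 varied, within the codon at bases 10 to 12. Over that codon matching from the TRAJ18 side was at 1.42% or less, and matching from the TRAV11 side fell from 97.1% to 62.9%. The steeper fall on the TRAV11 side came at bases 13 to 15, as the plot of matching by base shows.

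**Figure D1:**
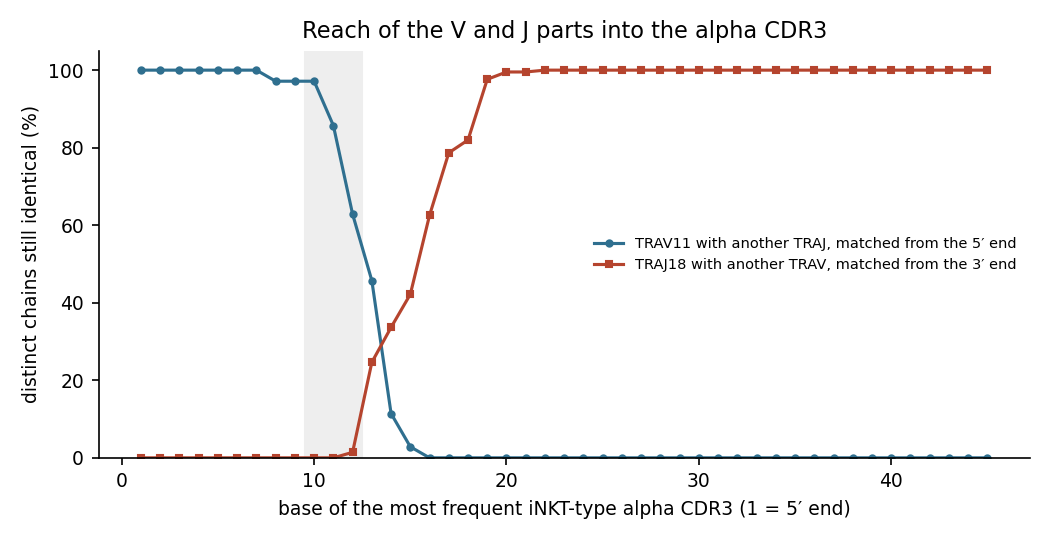
Share of distinct alpha CDR3 sequences (y axis, %) that are identical to the GGC form of the iNKT loop, by base (x axis, 1 at the 5′ end), counted from the 5′ end for 35 sequences of TRAV11 with another TRAJ (circles) and from the 3′ end for 211 sequences of TRAJ18 with another TRAV (squares). The grey band marks bases 10 to 12, across which the TRAV11 curve falls to 62.9% and the TRAJ18 curve is at 1.42% or less.

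The beta chains of iNKT-type receptors were biased to the segments known for these cells. Each of the 56 barcodes was a clonotype of its own (cells with the same beta bases and a shared alpha chain). TRBV13-2, TRBV29 or TRBV1 was used by 42 of these 56 clonotypes (75.0%, exact interval 61.6% to 85.6%) and by 2066 of 10559 other clonotypes (19.6%). The iNKT-type share was 66.7%, 68.2% and 83.3% in LNP-Ctrl 1 to 3 (8 of 12, 15 of 22 and 10 of 12) and 83.3% in LNP-P20-mAb 3 (5 of 6). The share among other receptors of those libraries was 23.8%, 19.9%, 18.5% and 16.9%. In LNP-P20-mAb 1 and 2, both iNKT-type clonotypes of each library used such a segment, against 18.9% and 16.9% of others.

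Every library thus had a higher share among iNKT-type than among other receptors. Over the 4 libraries with at least 5 iNKT-type barcodes the share was 75.4% ± 9.21 against 19.8% ± 2.99 (SD, n = 4), a gap of 55.6 percentage points. A two-sided exact sign-flip permutation test gave p = 0.125, which is the smallest p that 4 libraries allow, and 0.179 after Benjamini-Hochberg adjustment over 10 single-value tests.

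TRBV13-2 alone made up 30 of the 56 iNKT-type clonotypes (53.6%, exact interval 39.7% to 67.0%). By library it was 7 of 12, 11 of 22 and 7 of 12 in LNP-Ctrl 1 to 3 and 1 of 2, 1 of 2 and 3 of 6 in LNP-P20-mAb 1 to 3. Among other clonotypes its share ranged from 7.81% to 13.04% over libraries. In edgeR's quasi-likelihood test over 33 beta V and J segments, with the library as a block, TRBV13-2 was higher in iNKT-type receptors by a log2 ratio of 2.29 ± 0.26 (SE, edgeR adjusted p = 2.42e-10). It was the 1 segment called, 3.03% of those tested, and 10 segments lay below an unadjusted p of 0.05. The edgeR p-values rest on counts of clonotypes within libraries, whereas the sign-flip test above has 1 value for each of 4 libraries. The p-values of these tests are therefore not on the same footing. Of the 30 chains, 26 had been named jointly for TRBV12-2 and TRBV13-2 in the deposited annotation, and were counted as TRBV13-2 because their CDR1 residues were those of all 159 chains named TRBV13-2 alone, as in 1663 of 1665 joint chains overall. Chains named TRBV12-2 alone were not part of that check of CDR1. With the joint name kept apart, that name was called in place of TRBV13-2, and the gap in typical segments within libraries was 16.4 percentage points. DESeq2 on its own size factors, which moved the 21 segments present by a median of -1.05, did not call TRBV13-2 (log2 ratio 1.13, DESeq2 adjusted p = 0.0541), while DESeq2 on clonotype numbers did (log2 ratio 2.35, DESeq2 adjusted p = 2.02e-05).

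TRBV29 was used by 8 iNKT-type clonotypes (14.3%), with 1, 2 and 2 in LNP-Ctrl 1 to 3 and 1 in each LNP-P20-mAb library. It made up 3.26% to 5.94% of other clonotypes in each library. Its log2 ratio was 1.59 ± 0.54 and did not pass the test (edgeR adjusted p = 0.0708). With barcodes counted in place of clonotypes it passed (log2 ratio 1.99, edgeR adjusted p = 0.0170). That setting leaves the 8 iNKT-type counts as they were and counts each cell of expanded clones among others, which are not independent. TRBV1 was used by 4 (7.14%, against 4.24% of others), 2 in LNP-Ctrl 2 and 1 each in the third library of both treatments, at a log2 ratio of 0.74 ± 0.71 (edgeR adjusted p = 0.542). All 3 typical segments were thus found in both treatments, while the excess counted in clonotypes passed edgeR's test for TRBV13-2 alone.

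The relatives of TRBV13-2 in the Vβ8 family were not called. TRBV13-1 was used by 4 iNKT-type clonotypes, all in LNP-Ctrl 2, and TRBV13-3 by 4, of which 2 were in LNP-Ctrl 1. Each made up 7.14% of iNKT-type clonotypes, against 6.35% and 6.42% of others, with log2 ratios of 0.21 ± 0.64 and 0.15 ± 0.63 (edgeR adjusted p = 0.868 for both), whose sign turned under TMM scaling. The typical segments and these relatives together covered 50 of the 56. The other 6 clonotypes used TRBV10 in 2 cases and TRBV5, TRBV12-1, TRBV17 and TRBV19 in 1 each.

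Of 22 beta V names found in the libraries, 10 occurred among iNKT-type receptors. TRBV3, TRBV12-2 and TRBV16 did not, although they were used by 7.63%, 5.56% and 5.23% of other clonotypes. A count of 0 in 56 allows a share of up to 5.36% when the limit is set at 3 counts, and of up to 6.38% by the exact interval. The share of TRBV12-2 lies between these limits and that of TRBV16 below both, so that an absence of these or of rarer segments was not detectable at this depth. TRBV3 had an edgeR adjusted p of 0.0503 and was not called. With TMM scaling, which moved the log2 ratios of the 21 segments present by a median of -1.14, edgeR called 1 segment higher and 17 lower, where clonotype numbers as library sizes gave 1 and 0.

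**Figure D2:**
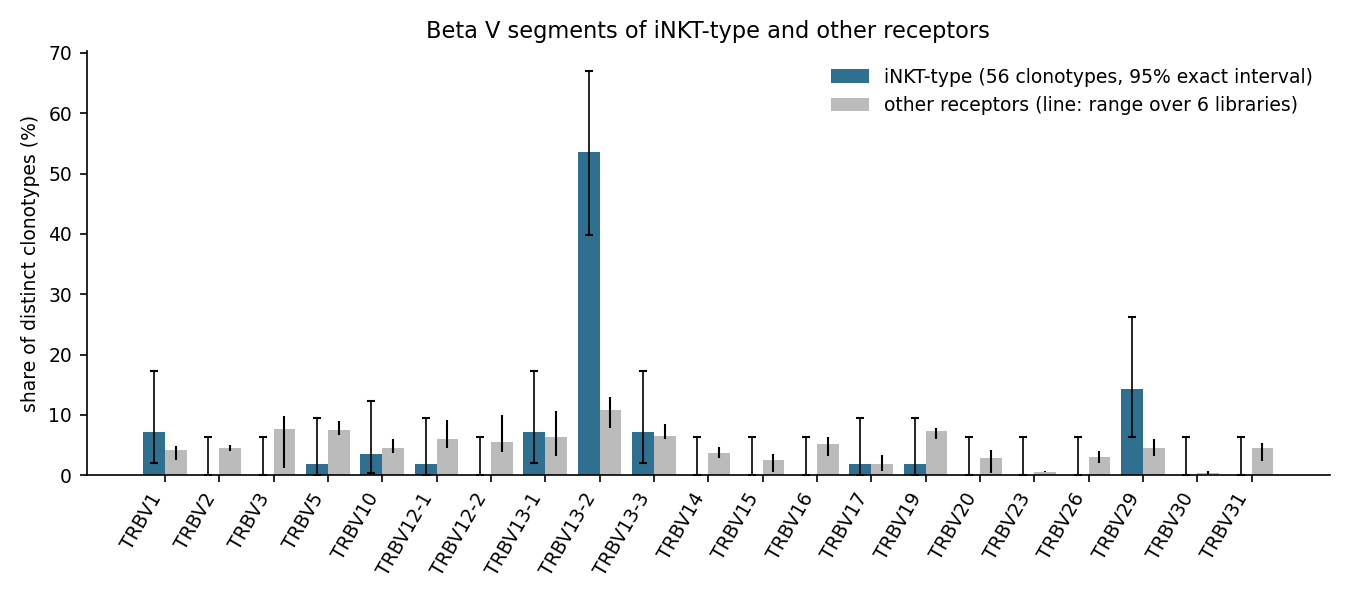
Share of distinct clonotypes (y axis, %) by beta V segment (x axis) for 56 iNKT-type clonotypes (blue bars, with 95% exact intervals) and 10559 other clonotypes (grey bars, with a line for the range over 6 libraries). TRBV13-2 stands at 53.6% against 10.7%, followed by TRBV29 at 14.3% against 4.57%.

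Chains with only 1 of the invariant segments had typical beta segments less often in every one of these 4 libraries. TRAV11 joined to another J segment was found on 38 barcodes in 33 clonotypes, and 10 of these (30.3%, exact interval 15.6% to 48.7%) used a typical segment, with TRBV13-2 in 1. TRAJ18 joined to another V segment was found on 247 barcodes in 205 clonotypes, and 47 (22.9%, exact interval 17.4% to 29.3%) used one, with TRBV13-2 in 30. Within the 4 libraries the iNKT-type share exceeded that of TRAV11 with another TRAJ by 50.8 percentage points and that of TRAJ18 with another TRAV by 53.1 points, in 4 of 4 libraries each. Both exact sign-flip permutation tests (n = 4) gave p = 0.125, the smallest possible, and 0.179 adjusted. For TRAV11 the comparison cannot single out that segment, since 32 of the 38 chains lay on a barcode with another alpha chain. LNP-Ctrl 1 and 3 held 5 clonotypes each of TRAV11 with another TRAJ.

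The 50 clonotypes with the frequent alpha loop and the 6 with another loop were set side by side. A typical beta segment was used by 38 of the 50 (76.0%) and 4 of the 6 (66.7%). TRBV13-2 was used by 29 and 1, TRBV29 by 7 and 1, and TRBV1 by 2 and 2. Whether the 2 kinds of loop differ was not tested, since the rarer kind had at most 3 barcodes in a library.

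Where the alpha loop recurred, the beta CDR3 loops did not. All 56 differed in amino acids, and none recurred on a second iNKT-type barcode. A few are shown, 2 or 3 per typical V segment and from both treatments, to set them against the nearly constant alpha loop above (all letters in lower case, since no part is singled out).
TRBV13-2 with TRBJ2-7, LNP-Ctrl 1: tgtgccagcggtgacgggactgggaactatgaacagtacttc
TRBV13-2 with TRBJ2-7, LNP-P20-mAb 2: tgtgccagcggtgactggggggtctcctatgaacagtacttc
TRBV13-2 with TRBJ2-5, LNP-P20-mAb 1: tgtgccagcggtgtggacacccagtacttt
TRBV29 with TRBJ1-1, LNP-Ctrl 3: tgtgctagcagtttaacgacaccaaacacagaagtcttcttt
TRBV29 with TRBJ1-5, LNP-P20-mAb 1: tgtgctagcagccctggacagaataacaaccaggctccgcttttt
TRBV1 with TRBJ2-7, LNP-Ctrl 2: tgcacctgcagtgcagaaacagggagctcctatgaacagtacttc
TRBV1 with TRBJ1-5, LNP-P20-mAb 3: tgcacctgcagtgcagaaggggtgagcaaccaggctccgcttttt

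The TRBV13-2 loop of LNP-P20-mAb 1 was the shortest of the 56, with 10 residues. The longest, with 19, used TRBV13-1 in LNP-Ctrl 2. One loop was also found on 1 of the other paired barcodes, as the same V, J and amino acids. It is shown because no other of the 56 was met on them. Barcodes with 2 or more beta chains or without an alpha chain were not searched.
TRBV13-2 with TRBJ2-3, LNP-Ctrl 2: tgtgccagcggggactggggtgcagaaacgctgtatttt

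Within TRBV13-2, the mean loop length was 14.5 ± 1.57 residues (SD over 30 clonotypes) in iNKT-type and 14.04 ± 1.52 (SD over 1135 clonotypes) in other receptors. TRBJ2-7 was joined to it in 10 of 30 (33.3%) and in 19.2% of others. These 2 differences were not tested.

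Beta CDR3 loops of iNKT-type receptors were on average longer than those of other receptors in each of the 4 larger libraries. Their mean length was 14.3, 15.1 and 14.6 residues in LNP-Ctrl 1 to 3 and 15.3 in LNP-P20-mAb 3, against 13.997, 13.98, 13.93 and 14.06 among other clonotypes. Means in LNP-P20-mAb 1 and 2, over 2 loops each, were 12.5 and 14, below the 14.01 and 14.02 of others there. Over the 4 larger libraries the means were 14.8 ± 0.458 and 13.99 ± 0.0510 (SD, n = 4), a gap of 0.843 residues seen in 4 of 4 (exact sign-flip permutation p = 0.125, the smallest possible, 0.179 adjusted). Loops of up to 13 residues were 12.5% of iNKT-type and 33.5% of other clonotypes, and loops of 14 to 16 residues were 82.1% and 63.4%.

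**Figure D3:**
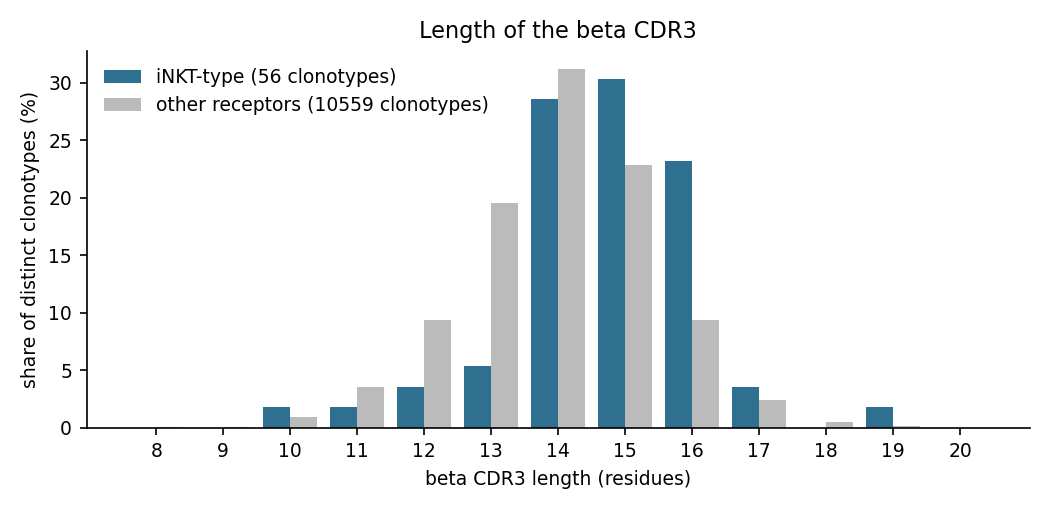
Share of distinct clonotypes (y axis, %) by beta CDR3 length in residues (x axis, lengths 8 to 20 shown) for 56 iNKT-type (blue) and 10559 other (grey) clonotypes pooled over libraries. The iNKT-type distribution peaks at 15 residues (30.4%) and the other at 14 (31.2%).

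Among J segments, TRBJ2-7 was the most frequent in iNKT-type receptors, with 16 clonotypes (28.6%, against 19.9% of others) and a log2 ratio of 0.50 ± 0.25 (edgeR adjusted p = 0.333). TRBJ2-5 followed with 9 (16.1% against 12.3%, log2 ratio 0.39 ± 0.38). The largest positive estimate was that of TRBJ1-5, with 6 clonotypes in 4 libraries (10.7% against 2.64%, log2 ratio 2.02 ± 0.68), which did not pass (edgeR adjusted p = 0.0604) but was called without LNP-Ctrl 3 (edgeR adjusted p = 0.0217). TRBJ1-1 had 5 clonotypes, TRBJ1-3, TRBJ1-4 and TRBJ2-4 had 4 each and TRBJ2-3 had 3, with log2 ratios from -0.72 to 0.58 and none called. TRBJ2-1 was used by 2 (3.57% against 12.4%, edgeR adjusted p = 0.101). A D segment had been named for 14 iNKT-type clonotypes (25.0%) and 23.6% of others.

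As a share of paired barcodes, iNKT-type barcodes were less frequent in each LNP-P20-mAb library than in any LNP-Ctrl library. There were 12, 22 and 12 in LNP-Ctrl 1 to 3 and 2, 2 and 6 in LNP-P20-mAb 1 to 3. These were 0.360%, 0.561% and 0.321% of paired barcodes in LNP-Ctrl and 0.0613%, 0.0992% and 0.211% in LNP-P20-mAb libraries. The treatments did not overlap. The means were 0.414% ± 0.129 and 0.124% ± 0.0779 (SD, n = 3 each), 3.34 times higher in LNP-Ctrl, with p = 0.1 in a two-sided exact permutation test over 20 assignments, the smallest it can give, and 0.179 adjusted. Without LNP-P20-mAb 3 the ratio was 5.16, and without each other library in turn it was 2.67 to 3.72. The exact intervals are wide, from 0.186% to 0.628% in LNP-Ctrl 1 and from 0.0775% to 0.459% in LNP-P20-mAb 3, and overlap between these libraries.

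Counted per distinct receptor, the treatments overlapped. iNKT-type clonotypes were 0.667%, 0.712% and 0.351% of all clonotypes in LNP-Ctrl 1 to 3 and 0.358%, 0.501% and 0.443% in LNP-P20-mAb 1 to 3. The means were 0.577% ± 0.197 and 0.434% ± 0.0718 (SD, n = 3 each, exact permutation p = 0.4). LNP-Ctrl libraries held 2768 ± 855 clonotypes and LNP-P20-mAb libraries 770 ± 511 (n = 3 each), and 58.7% to 86.3% of other barcodes in LNP-P20-mAb libraries belonged to clonotypes of 2 or more cells, against 11.9% to 50.8% in LNP-Ctrl libraries. Fewer iNKT-type cells and more cells of other, expanded clones in the same sort cannot be told apart from shares of barcodes. With LNP-P20-mAb 1 and 2 counted as 1 sample the difference in barcode share, LNP-P20-mAb minus LNP-Ctrl, was -0.271 percentage points instead of -0.290 (exact permutation p = 0.1), and without LNP-Ctrl 2 it was -0.217 (exact permutation p = 0.2).

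**Figure D4:**
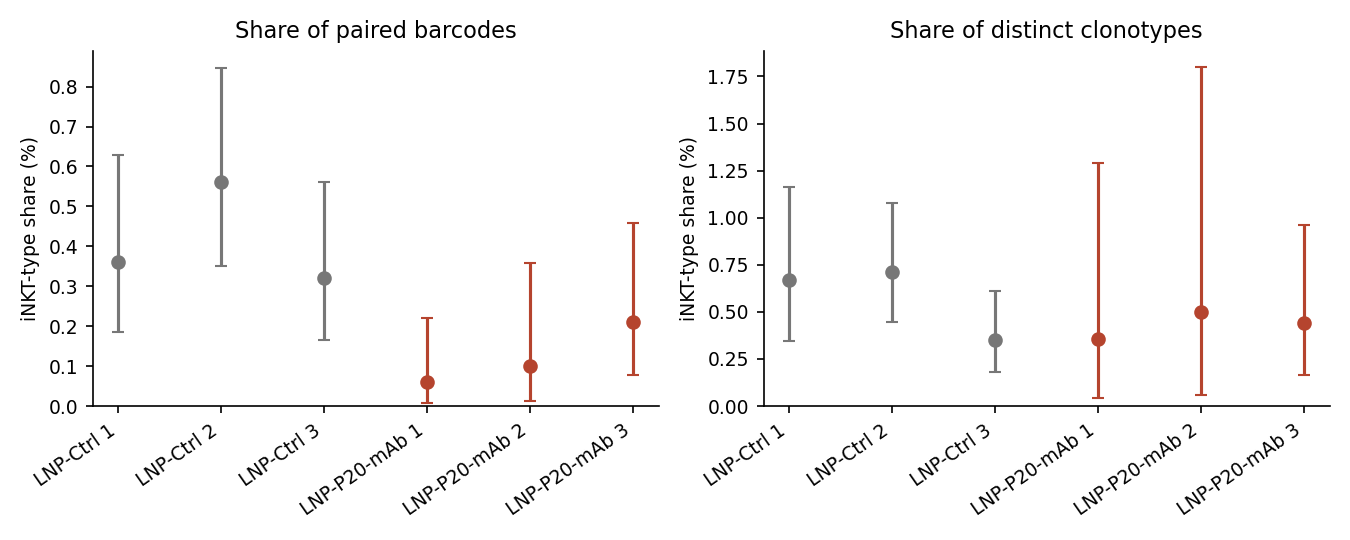
Share of iNKT-type receptors (y axis, %) in each library (x axis) among paired barcodes (left) and among distinct clonotypes (right), with 95% exact Clopper-Pearson intervals, for LNP-Ctrl (grey) and LNP-P20-mAb (red). On the left the 3 LNP-P20-mAb points lie at 0.211% or below and the LNP-Ctrl points at 0.321% or above, while on the right they overlap.

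Use of the typical beta segments could be compared between treatments only coarsely. LNP-P20-mAb 3 was the 1 library of its treatment with at least 5 iNKT-type barcodes, and its 83.3% lay 10.6 percentage points above the mean of the LNP-Ctrl libraries (exact permutation p = 0.75, 3 libraries against 1, where the smallest possible p is 0.25). A test of the interaction in edgeR called 0 of 33 segments (0 below an unadjusted p of 0.05, lowest adjusted p 0.902), but with 10 iNKT-type clonotypes on the LNP-P20-mAb side this does not show that usage was the same.

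No iNKT-type clonotype held more than 1 cell. Each of the 56 barcodes stood alone in its library, while 50.8%, 26.2% and 11.9% of other barcodes in LNP-Ctrl 1 to 3 and 86.3%, 85.0% and 58.7% in LNP-P20-mAb 1 to 3 lay in clonotypes of 2 or more cells. In LNP-Ctrl 2, the library with the most, 0 of 22 allows a share of up to 13.6% at 3 counts and 15.4% by the exact interval. In LNP-Ctrl 1 and 3, 0 of 12 allows up to 25.0% and 26.5%. By either limit the share of other barcodes lay above in LNP-Ctrl 1 and 2 and below in LNP-Ctrl 3. Over the 4 larger libraries the gap was 36.9 percentage points, in the same direction in 4 of 4 (exact sign-flip permutation p = 0.125, the smallest possible, 0.179 adjusted). With 0 expanded iNKT-type barcodes the gap could lie in this direction only.

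The invariant chain was represented by few transcripts. Among barcodes with exactly 1 alpha chain, the median number of alpha UMIs was 5.5, 3 and 4 in iNKT-type barcodes of LNP-Ctrl 1 to 3 and 5 in LNP-P20-mAb 3, against 9, 6, 5 and 8 in other barcodes. The iNKT-type median was lower in 4 of 4 libraries, at 0.625 times the level of others on the log2 scale (log2 difference -0.68 ± 0.28, SD, n = 4, exact sign-flip permutation p = 0.125, the smallest possible, 0.179 adjusted). In LNP-P20-mAb 1 it was 6 against 8, and in LNP-P20-mAb 2, with 2 barcodes, 9 against 8. Barcodes with TRAJ18 and another V segment had medians of 13, 5.5, 6 and 7.5 in the 4 larger libraries, each above the iNKT-type value. Those with TRAV11 and another J segment had 4, 3, 8 and 5, over 1 to 3 barcodes each, which is at or below the iNKT-type value in 3 of these 4 libraries. Over all 56 barcodes the invariant chain had 1 to 12 UMIs, and 3 barcodes had 1.

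Beta chains, counted over all barcodes and not only those with 1 alpha chain, did not show a shift in 1 direction. Their median UMIs were 16, 13, 15.5 and 25 in LNP-Ctrl 1 to 3 and LNP-P20-mAb 3, against 21, 14, 15 and 18 in other barcodes. The iNKT-type median was lower in 2 of these libraries and higher in 2 (exact sign-flip permutation p = 1, n = 4). Among iNKT-type barcodes with exactly 1 alpha chain, the beta medians were 16, 13, 11.5 and 25 in the same order. The split between libraries was not tested for that set.

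**Figure D5:**
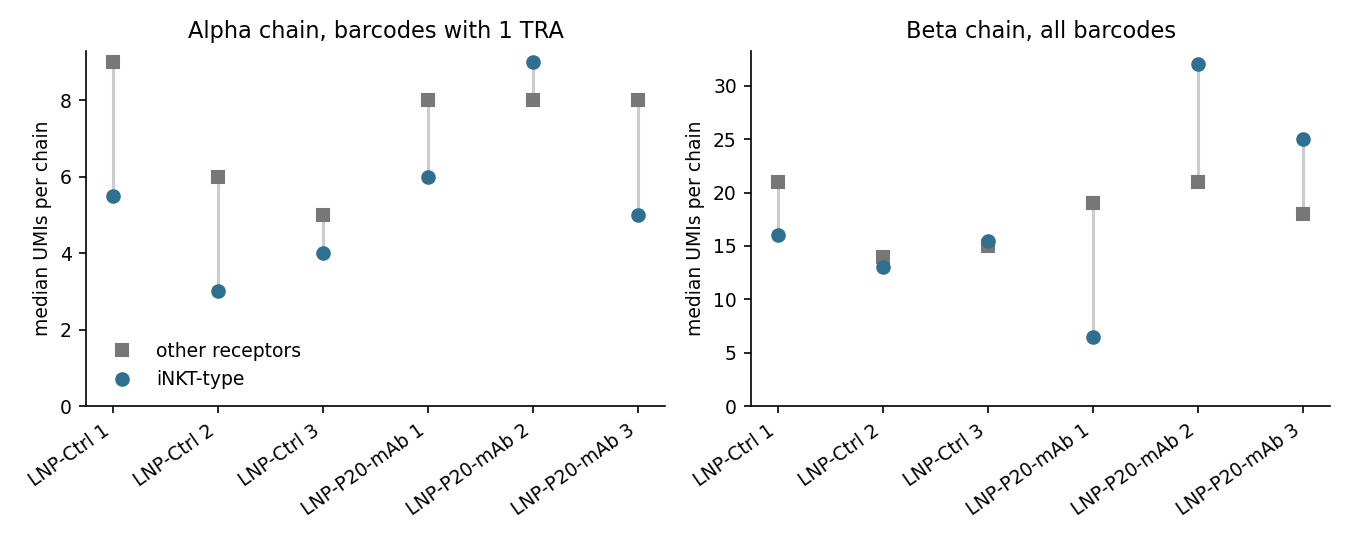
Median UMIs per chain (y axis) in each library (x axis) for iNKT-type (blue circles) and other (grey squares) barcodes, for alpha chains of barcodes with 1 TRA chain (left) and for beta chains of all barcodes (right). The alpha median of iNKT-type barcodes lies below that of others in every library except LNP-P20-mAb 2, which has 2 such barcodes, while beta medians lie on either side.

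A second alpha chain was found on 6 of the 56 iNKT-type barcodes (10.7%, exact interval 4.03% to 21.9%) and on 2487 of 19059 others (13.05%). T cells can rearrange both alleles of the alpha locus, so 2 productive chains are a known condition. By library the counts were 2, 1 and 2 in LNP-Ctrl 1 to 3 and 0, 0 and 1 in LNP-P20-mAb 1 to 3. Over the 4 larger libraries the shares were 13.6% ± 6.06 and 15.4% ± 5.76 (SD, n = 4, exact sign-flip permutation p = 0.625). Cells with 2 chains are met through either of them, and among all other alpha chains on paired barcodes 23.1% lay on a barcode with a second one. Against that share of chains, a comparison chosen after the data were seen, the iNKT-type share was 12.8 percentage points lower over the 4 libraries (exact sign-flip permutation p = 0.125, the smallest possible).

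The 6 second chains had no V segment in common. They joined TRAV13-1 to TRAJ43 and TRAV14N-3 to TRAJ28 in LNP-Ctrl 1, TRAV13N-3 to TRAJ18 in LNP-Ctrl 2, TRAV4-2 to TRAJ35 and TRAV9-2 to TRAJ12 in LNP-Ctrl 3 and TRAV10N to TRAJ23 in LNP-P20-mAb 3. The chain in LNP-Ctrl 2 used TRAJ18 as well, so that this barcode held 2 TRAJ18 rearrangements. The barcodes with the invariant loops of 16 and 17 residues were both among the 6, with TRAV9-2 and TRAV10N as second chains. The others of the 6 had the frequent invariant loop. In 4 of the 6 the second chain had more UMIs than the invariant one, as with 14 against 5 for TRAV4-2 and 12 against 5 for TRAV14N-3. A typical beta segment was present in 3 of the 6 barcodes. The other 3 used TRBV5, TRBV17 and TRBV12-1, which were the sole iNKT-type occurrences of those segments.

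Barcodes with the invariant chain that fell outside the rule used these beta segments as well. Barcodes with 2 or more beta chains, which can be doublets, had been left out on both sides, while those with 2 alpha chains were kept and no doublet caller was run. Each of the 6 with the invariant chain and 2 beta chains held a typical V segment on at least 1 of them, against 500 of 1838 barcodes with 2 beta chains and other alpha chains (27.2%). TRBV13-2 was held by 5 of the 6 and by 6.58% of those others. These are shares of barcodes, in which cells of expanded clones count each, unlike the shares of clonotypes above. In LNP-P20-mAb 2 one such barcode held TRBV13-2 on both, at 44 UMIs with TRBJ1-2 and 23 UMIs with TRBJ1-1. With barcodes of 2 or more beta chains kept on both sides, the difference in iNKT-type share, LNP-P20-mAb minus LNP-Ctrl, was -0.261 percentage points (exact permutation p = 0.1).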

How the data were processed

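Receptor libraries from CD45-positive tumour cells were made with 10x Genomics 5′ version 2 kits, per the labels' protocols. Cell Ranger 8.0.1 was used, per the submitters' processing notes, in which several mouse genome builds appear without stating their use. Coordinates are therefore left out. The authors deposited raw counts of reads and UMIs per assembled chain, 1 chain per line, and the calling of cells and chains was theirs. A chain below their limits leaves no trace in these files. The deposited chain length in bases (other than the counts) was not used.

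Chains of 1 barcode with the same V, J and CDR3 bases were counted once. Clonotypes were barcodes of a library with the same beta chain and a shared alpha chain. Libraries were grouped by their titles, and each was 1 replicate. Within-library tests used the 4 libraries with at least 5 iNKT-type barcodes (exact sign-flip permutation), and treatments were compared by exact permutation, all two-sided. Segments with 30 or more clonotypes were tested with edgeR 4.0.16 in R 4.3.3 (quasi-likelihood, library as block, number of clonotypes as library size, threshold an adjusted p of 0.05), with SE taken as the log2 ratio divided by the square root of F. The edgeR fit was also run on simulated Poisson counts with set folds. These had no added variation between libraries, so they do not bear on its p-values where libraries vary. DESeq2 1.42.0 was an alternative. Python 3.11.15, pandas 2.3.3, numpy 2.4.6, scipy 1.17.1 and matplotlib 3.10.9 were used.

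The segments named are TRBV13-2, TRBV29, TRBV1, their Vβ8 relatives, any called segment and those with 3 or more iNKT-type clonotypes. The members and lists were chosen with earlier results of these data known. The labels give no shared batch or day for libraries of the same number, so the main tests did not pair them.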

Additional observations from a re-analysis of the deposited data

How the results depend on the processing

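Of the results compared under alternatives, the shares by treatment, the share of typical beta segments, the alpha UMIs, the CDR3 length and the expanded share kept their direction under every alternative run. For the expanded share no other direction was possible, since no iNKT-type barcode was expanded. Leaving out LNP-P20-mAb 1 or 2 could not change the within-library results, which did not use those libraries. With libraries left out in turn, the second alpha chain difference ranged from -4.32 to 0.334 percentage points and the difference in log2 beta UMIs from -0.158 to 0.132, with the sign turned without LNP-Ctrl 2 for the first and without LNP-Ctrl 3 or LNP-P20-mAb 3 for the second. The second alpha difference was 0.988 points among barcodes with 10 or more beta UMIs, and the beta UMI difference was -0.32 with the frequent alpha loop only. The count of called segments, 1 in edgeR, was 1 to 2 with libraries left out, 3 with barcodes counted, 18 with TMM, 0 with DESeq2 on its own size factors (3 adjusted p-values undefined) and 2 with DESeq2 on clonotype numbers, chosen after the data were seen. DESeq2 and TMM moved the 21 segments present by a median of -1.05 and -1.14, and relative to that shift TRBV13-2 stood at 2.18 and 2.33. The cause was not tested. The typical share gap was 16.4 points with the joint name kept apart, since most TRBV13-2 chains then drop out.

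Estimates of segments that were not called changed sign as follows. With TMM, TRBJ1-3 was -0.54, TRBJ1-4 -0.91, TRBJ2-5 -0.73, TRBJ2-7 -0.67, TRBV1 -0.32, TRBV13-1 -1.05 and TRBV13-3 -1.03. With DESeq2 they were -0.52, -0.91, -0.65, -0.77, -0.28, -1.35 and -1.02 in that order, and TRBV13-1 was -0.00033 on clonotype numbers. With the frequent loop only, TRBJ1-1 was 0.015, TRBV1 -0.11 and TRBV13-1 -0.010, and with 2 or more UMIs TRBJ1-4 was -0.15. With libraries left out, TRBJ1-1 ranged from -0.74 to 0.0083, TRBJ1-3 from -0.13 to 0.95, TRBJ1-4 from -0.11 to 0.32, TRBJ2-4 from -0.58 to 0.023, TRBV13-1 from -8.48 to 0.55 and TRBV13-3 from -0.51 to 0.45.

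With the replicate block, pairing libraries by number, the treatment gap in iNKT-type share was -0.290 percentage points (exact sign-flip permutation p = 0.25, the smallest 3 pairs allow). Deviations in beta segment usage across 33 segments had r = -0.34, -0.13 and -0.040 between same-numbered libraries of the treatments. Between differently numbered ones r was -0.50 to 0.56. These few values cannot show whether the numbers pair libraries. For the typical share between treatments no paired analysis was possible because 1 LNP-P20-mAb library had enough barcodes, and no value was obtained without that library or with the frequent loop only. Depth limits every count here, with 2 to 22 iNKT-type barcodes per library.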

Other observations

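TRAV11 joined to a J segment other than TRAJ18 was found mostly beside another alpha chain. Of 38 such chains 32 (84.2%, exact interval 68.7% to 94.0%) lay on a barcode with 2 alpha chains, against 6 of 56 invariant chains (10.7%) and 23.1% of all chains that were not invariant. It was 88.9% for LNP-Ctrl 1, 76.9% for LNP-Ctrl 2, 83.3% for LNP-Ctrl 3 and 90.0% for LNP-P20-mAb 3, while LNP-P20-mAb 1 and 2 had no such chain. On those 32 barcodes the TRAV11 chain had a median of 4 UMIs and its partner 5.5. Among 83 V segments with at least 30 chains, invariant chains left out, TRAV11 had rank 4 by this share, after TRAV4-2 (87.3%), TRAV15-1-DV6-1 (86.4%) and TRAV13N-3 (85.7%), where cells of expanded clones count each.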
